A study of Rattus norvegicus with 4 samples.

Results

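The genes Fth1, Hmox2, Mt1, Mt3 and Nqo1, which handle iron, heme, zinc and copper, and quinones, were followed in rat liver at 1 h after the common bile duct was tied. They were taken by name: every probe whose platform annotation gives exactly 1 gene symbol, being 1 of these 5, was kept and is shown by itself. That left 6 of the 1936 probes on the array and 5 of the 958 genes with a probe of their own: Fth1 had probes 308 and 1276, and Hmox2 (probe 29), Mt1 (1758), Mt3 (743) and Nqo1 (1498) had 1 each. Male Sprague-Dawley rats of 250 to 300 g had the duct tied or, as the sham control, only exposed, both under ether, and were killed in groups of 3. Liver RNA within a group was mixed before poly(A) selection, so each labelled sample is a pool. Ages were not given. All 4 arrays set a ligated pool against a sham pool, with the ligated pool in Cy5 on arrays 1 and 3 and in Cy3 on arrays 2 and 4. The labels do not say whether arrays shared an RNA extract, and p-values here speak of the spread among arrays, which may be technical, not among animals.

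Ferritin is the shell in which cells store iron, and its heavy chain, made by Fth1, oxidises the iron for storage. Heme oxygenases open the heme ring, which frees iron and gives biliverdin, the precursor of the bile pigment bilirubin; Hmox2 encodes the constitutive form and Hmox1 the inducible one. Metallothioneins are small cysteine-rich proteins that bind zinc and copper; Mt1 is strongly induced in liver by metals and glucocorticoids, whereas Mt3 is best known from brain. Nqo1 encodes a quinone reductase that turns quinones directly into hydroquinones and is a standard target of the stress-activated transcription factor NRF2.

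Each deposited value is a log ratio of the 2 channels of an array, with a base that the sources used here do not give. Values were read as ligated over sham, and values above 0 mean more signal from the ligated pool. The labels list sham as channel 1 and ligation as channel 2 without saying which was divided by which, so with sham as the numerator throughout every sign below would turn. A reading as Cy5 over Cy3, which turns some signs and not others, is treated further on. The array medians were -0.88, 0.75, -0.73 and 0.87, which follows the dye, and each array was therefore centred on its median. The operation estimate of a probe is its mean over the 4 centred arrays from a limma fit with a dye term on all 1936 probes, and errors are its standard error (SE) with n = 4 arrays unless another is named. A probe was called at a Benjamini-Hochberg adjusted p under 0.05. Probes were also compared within blocks, runs of 121 consecutive probe numbers of which the array holds 16. The block-wise dye curve subtracts, within a block and for each array, the smooth relation of the values to the dye part of a probe (how far its arrays of opposite dye differ). Its SE does not count the freedom the curve uses. The curve also takes out whatever the probes of a block share, be it from the operation or not. A probe with values typical of its block thus comes out near 0 by construction. A ratio holds no level, so neither the abundance of these transcripts nor the hepatocyte identity of the tissue could be checked, and fewer cells of a type cannot be told apart from less RNA per cell.

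Of the 6 probes 1 was called, Fth1 probe 308, which was lower after ligation, against 5.73% of all probes called in either direction and 4.8% called lower. It was also the only member with an unadjusted p under 0.05, as 14.3% of all probes had. That call did not hold under the block-wise dye curve, where no member probe was called in limma, against 7.02% of all probes, and 1, Mt1, had an unadjusted p under 0.05, against 20.7% of all probes. No member had the same sign on all 4 arrays, as deposited (6.92% of all probes did) or after centring (1.91%). The 6 estimates ran from -0.29 to 0.15.

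**Figure D1:**
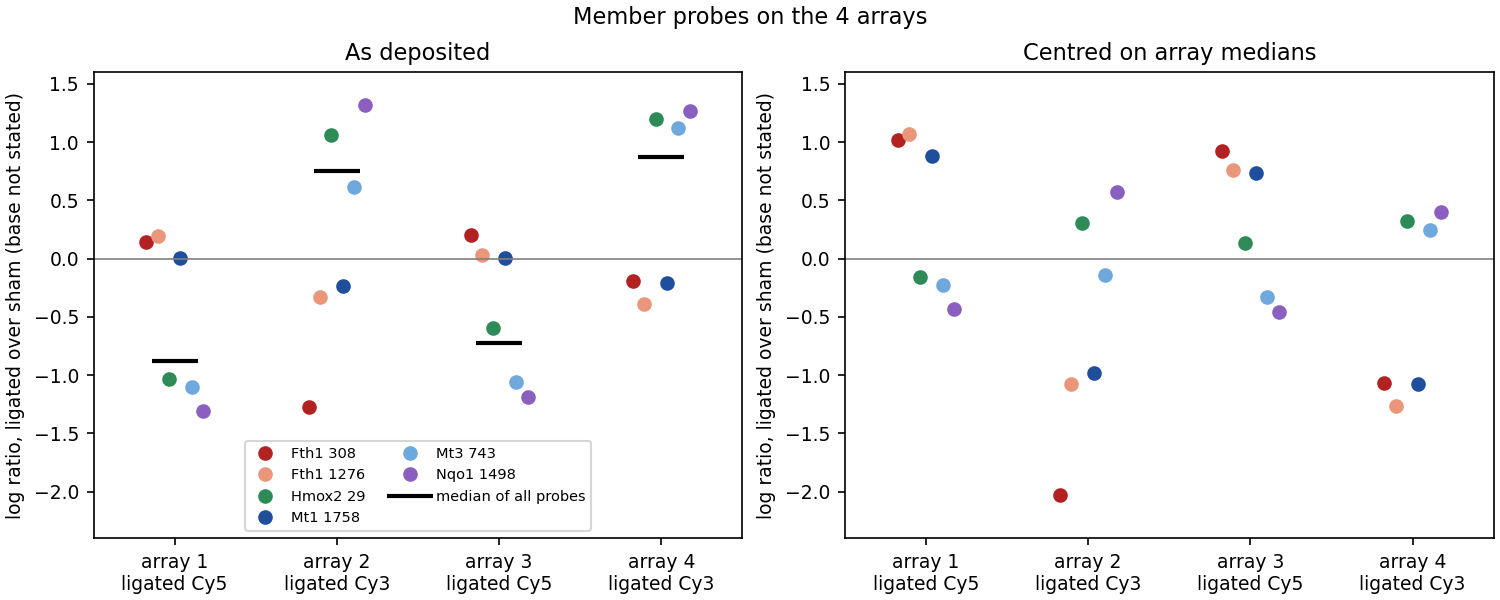
Log ratio of ligated over sham (vertical axis, base not stated) of the 6 member probes on each of the 4 arrays, as deposited on the left with black bars at the median of all probes, and centred on that median on the right. As deposited, Hmox2, Mt3 and Nqo1 lie below 0 where the ligated pool carried Cy5 (arrays 1 and 3) and above 0 where it carried Cy3, Fth1 and Mt1 lie close to 0 or on the other side, and Fth1 probe 308 stands apart at -1.27 on array 2.

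The iron storage gene Fth1 was read by both of its probes in a like way on 3 arrays. Probe 308 had deposited log ratios of 0.14, -1.27, 0.20 and -0.19 on arrays 1 to 4, and probe 1276 had 0.20, -0.33, 0.029 and -0.39. Both were above 0 where the ligated pool carried Cy5 and below 0 where it carried Cy3, and the low value of probe 308 on array 2 is the widest departure between them. After centring, probe 308 fell by 0.29 ± 0.09 (limma adjusted p = 0.0462), with a 95% interval from -0.47 to -0.10. If the base of the log is 2, that is 0.82-fold, with an interval from 0.72-fold to 0.93-fold. Probe 1276 had an estimate of -0.13 ± 0.08 (95% interval -0.30 to 0.04, adjusted p = 0.611) and was not called.

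The difference between the 2 Fth1 probes, 308 minus 1276 within an array, was -0.056, -0.95, 0.17 and 0.20. Its mean was -0.16 ± 0.54 (SD, n = 4 arrays; two-sided exact permutation test over 16 sign patterns, p = 0.875). With 4 arrays that test cannot go below 0.125. Without replicate 2 the mean difference was 0.10 ± 0.14 (SD, n = 3; exact permutation p = 0.5, smallest possible 0.25), so its sign depended on array 2. Averaged before the fit, the probes gave Fth1 an estimate of -0.21 ± 0.08, which was not called (limma adjusted p = 0.182).

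Fth1 probe 308 lies in block 3, and its values moved in the same directions as the medians of that block. Relative to a dye curve for the whole array it deviated by -0.22, -0.68, -0.087 and 0.29 on arrays 1 to 4, and the median deviations of the 121 probes of block 3 were -0.23, -0.83, -0.26 and 0.28. The probe lay above the block's median on each array, and above its upper quartile on array 2 (-0.715) and array 3 (-0.145). The median operation estimate of block 3 was -0.286, and that of the probe -0.286. In block 3, 60 of 121 probes (49.6%) were called lower and 0 higher. After the block-wise dye curve, the 4 values of probe 308 were 0.072, 0.087, 0.054 and 0.062, and its estimate turned to 0.069 ± 0.03 (adjusted p = 0.295). Probe 1276, in block 11 with a median estimate of -0.027, had -0.047 ± 0.03 after the same curve (adjusted p = 0.518). The difference between the 2 probes was then 0.115 ± 0.011 (SD, n = 4 arrays), with an exact permutation p of 0.125, the smallest the design allows. Since the curve takes from each array a smooth function of the dye part, arrays of opposite dye are drawn together by construction, and the small SD is no measure of replicate error.

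The call of Fth1 probe 308 also rested on single arrays and on the settings of the fit. Without replicate 2 its estimate was -0.046 ± 0.09 (adjusted p = 0.972), and without replicate 4 it was -0.53 ± 0.09 (adjusted p = 3.27e-08). Without replicate 1 or 3 the estimate was -0.31 or -0.26 (adjusted p = 0.543 and 0.999), where the shared SE is larger. As deposited, without centring, it was -0.28 ± 0.18 (adjusted p = 0.674), and with arrays scaled to an equal spread -0.28 ± 0.10 (adjusted p = 0.13). Over its 11 alternatives the adjusted p ran from 3.61e-20, in the Cy5 over Cy3 reading, where the sign turned (1.26), to 1; without that reading the lowest was 3.27e-08.

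**Figure D2:**
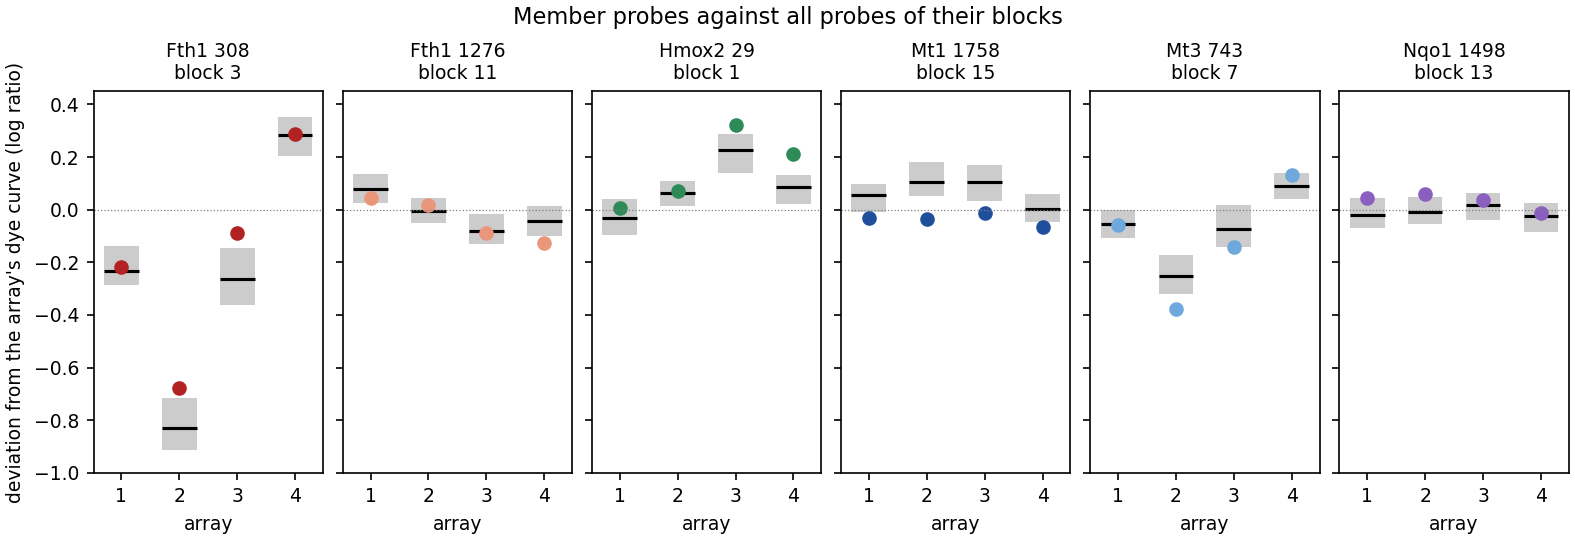
Deviation from the array's dye curve (vertical axis, log ratio) on arrays 1 to 4 for each member probe (coloured point), with the median (black line) and the quartiles (grey bar) of all 121 probes of its block. Fth1 probe 308 follows block 3 down to -0.68 on array 2, where the block's median is -0.83, and up to 0.29 on array 4, while Mt1 lies below the median of block 15 on all 4 arrays.

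Hmox2, the constitutive heme oxygenase, had the highest estimate of the 6 probes without being called. Its deposited log ratios were -1.04, 1.06, -0.59 and 1.20. They parted by dye as those of 72.2% of all probes did, with the Cy5-labelled ligated pool (arrays 1 and 3) below 0. Centred, they were -0.16, 0.31, 0.13 and 0.33, above 0 on 3 of 4 arrays. The estimate was 0.15 ± 0.08 (95% interval -0.016 to 0.32, adjusted p = 0.448), higher than that of 97.1% of all probes. In fold, if the base is 2, the interval runs from 0.99-fold to 1.25-fold. Block 1, which holds the probe, had a median estimate of 0.066. After the block-wise dye curve, Hmox2 had 0.075 ± 0.04 (adjusted p = 0.293), with 0.036, 0.021, 0.11 and 0.13 on the 4 arrays. Without replicate 3 the estimate was 0.078, and without replicate 1 it was 0.23. Neither was called (adjusted p = 0.999 and 0.934), and over its 11 alternatives the adjusted p ran from 0.0641, in the Cy5 over Cy3 reading, where the sign turned (-0.17), to 1; without that reading the lowest was 0.293.

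The metallothioneins Mt1 and Mt3 had nearly the same estimate on centred values, though not after the block-wise dye curve, and neither was called. The windows upstream of their starts are shown because this family is known for metal response elements, the sites at which the zinc-sensing factor MTF1 acts. Both are 250 bases ending at the annotated start, from RefSeq on the GRCr8 assembly and written 5′ to 3′ on the gene's minus strand. Capitals mark the core of the metal response element, TGCACNC or TGCGCNC, searched on both strands. The Mt1 window is chr19:10832976-10833225 and the Mt3 window chr19:10856081-10856330.
Mt1: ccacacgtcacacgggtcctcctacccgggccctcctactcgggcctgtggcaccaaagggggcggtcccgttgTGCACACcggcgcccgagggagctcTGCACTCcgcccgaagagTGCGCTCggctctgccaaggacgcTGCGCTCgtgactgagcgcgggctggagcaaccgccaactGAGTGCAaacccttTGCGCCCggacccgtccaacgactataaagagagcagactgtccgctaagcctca
Mt3: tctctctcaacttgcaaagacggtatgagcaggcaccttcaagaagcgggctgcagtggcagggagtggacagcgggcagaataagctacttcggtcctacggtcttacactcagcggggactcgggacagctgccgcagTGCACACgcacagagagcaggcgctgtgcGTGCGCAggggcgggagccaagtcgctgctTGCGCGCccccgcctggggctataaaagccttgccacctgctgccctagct
The Mt1 window holds 6 cores, whose first bases lie 176, 151, 133, 109, 69 and 55 bases before the start, none overlapping another. The Mt3 window holds 3, at 110, 81 and 51 bases. Of 33469 windows of this length, 20.6% hold at least 1 core, 1.17% at least 3 and 0.0269% at least 6. Windows were matched for 4 of the 5 member genes. Among the others, that of Nqo1 holds 0 cores, and of 2 windows of Hmox2 1 holds 2 cores, which overlap on opposite strands. The antioxidant response core TGACNNNGC, searched the same way, had 1 match in the Mt1 window, 1 in a Hmox2 window and 0 in those of Mt3 and Nqo1, against 10.1% of all windows with a match. A match describes the letters only, and sequence further upstream than these 250 bases was not searched for either core.

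The Mt1 probe gave the tightest deposited values of the members. They were 0.0026, -0.23, 0.0083 and -0.21, with an SD of 0.13 over the 4 arrays, against SDs from 0.28 to 1.47 for the other 5 probes. On centred values the order differs, with an SD of 1.06 for Mt1 against 0.23 for Hmox2, 0.25 for Mt3 and 0.54 for Nqo1. Arrays of the same dye differed by 0.14 (1 minus 3, as centred) and 0.093 (2 minus 4). The operation estimate was -0.11 ± 0.08 (95% interval -0.28 to 0.06, adjusted p = 0.718), or between 0.82-fold and 1.04-fold if the base is 2. After the block-wise dye curve it was -0.091 ± 0.03 (95% interval -0.17 to -0.015), with -0.10, -0.11, -0.078 and -0.075 on the 4 arrays. The adjusted p was 0.154 and the unadjusted p 0.0234, so Mt1 was not called, and here too the closeness of the 4 values is partly built in by the curve. Block 15, which holds the probe, had a median estimate of 0.046. Over its alternatives other than the Cy5 over Cy3 reading, the Mt1 estimate stayed between -0.15 and -0.036 (adjusted p 0.154 to 1).

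Mt3 had deposited log ratios of -1.10, 0.61, -1.06 and 1.12, which parted by dye like those of Hmox2. Centred, they were -0.22, -0.14, -0.33 and 0.25, below 0 on 3 of 4 arrays. The estimate was -0.11 ± 0.08 (95% interval -0.28 to 0.06, adjusted p = 0.724). Arrays 2 and 4, of the same dye, differed by 0.39, a wider gap than in 87.8% of all probes. Without replicate 2 the estimate was -0.015 and without replicate 4 it was -0.21 (adjusted p = 0.995 and 0.101). Block 7, which holds the probe, had a median estimate of -0.0997, close to that of Mt3. The block deviated with a median of -0.25 on array 2 and 0.088 on array 4, and Mt3 by -0.38 and 0.13. After the block-wise dye curve Mt3 had -0.030 ± 0.04 (adjusted p = 0.763), and over its 11 alternatives the adjusted p ran from 0.0652, in the Cy5 over Cy3 reading (-0.17), to 1; without that reading the lowest was 0.101. The spots are cDNA, their sequences were not used here, and transcripts of closely alike metallothioneins, or of the many processed copies of Fth1, may bind the same spot.

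Nqo1, the quinone reductase, had the estimate nearest to 0. Its deposited log ratios were -1.31, 1.32, -1.19 and 1.27, the widest split by dye among the members. Centred, they were -0.43, 0.57, -0.46 and 0.40. Arrays of the same dye differed by 0.031 and 0.17. The estimate was 0.020 ± 0.08 (adjusted p = 0.991), with a 95% interval from -0.15 to 0.19, or from 0.90-fold to 1.14-fold if the base is 2. After the block-wise dye curve it was 0.042 ± 0.03 (adjusted p = 0.567), and without replicate 2 it was -0.023 (adjusted p = 0.992). Over the 11 alternatives the adjusted p ran from 7.67e-07, in the Cy5 over Cy3 reading, to 1.

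**Figure D3:**
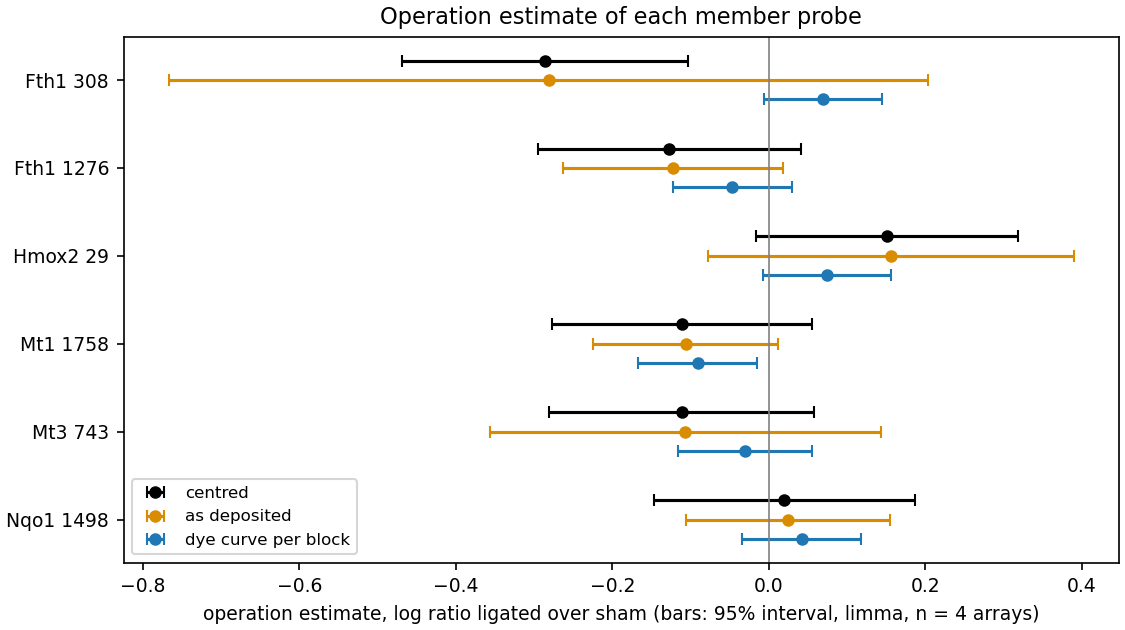
Operation estimate of each member probe (horizontal axis, log ratio of ligated over sham) with its 95% interval from limma over 4 arrays, on centred values (black), as deposited (orange) and after a block-wise dye curve (blue). On centred values the interval of Fth1 probe 308 (-0.47 to -0.10) lies apart from 0 and those of the other 5 probes include it; after the block curve only the interval of Mt1 (-0.17 to -0.015) lies apart from 0, before adjustment over all probes.

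The members fell into 2 kinds by their dye part, which is the mean of arrays 1 and 3 minus that of arrays 2 and 4, divided by 2. On centred values it was 1.26, 1.04 and 0.92 for Fth1 probes 308 and 1276 and for Mt1, higher than in 99.6%, 97.7% and 91% of all probes. It was -0.17 for Hmox2, -0.17 for Mt3 and -0.47 for Nqo1. As deposited, the Fth1 probes and Mt1 were above 0 with the ligated pool in Cy5 and below 0 with it in Cy3, as 6.66% of all probes were. If the deposited values are instead read as Cy5 over Cy3, the dye part becomes the operation estimate. The array medians would then put the ligated pool below the sham pool on all 4 arrays. Which reading holds was not tested. In that reading 4 of the 6 probes were called in limma, against 82.6% of all probes: both Fth1 probes and Mt1 as higher, Nqo1 as lower.

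For each member, the genes with the most similar centred values over the 4 arrays were taken by the root mean square difference from any of its probes. For Fth1 both nearest genes were nearest to probe 1276, so probe 308 has none of its own here. Fth1 probe 1276 was closest to Ldha (0.0478) and Fgg (0.0525), and Mt1 to Eno1 (0.0317) and Apob (0.0325). Nqo1 was closest to Clec10a (0.0282) and Il15 (0.0291), Hmox2 to Col2a1 (0.0436) and Timp1 (0.063), and Mt3 to Cd36 (0.0456) and St13 (0.0565). All share the 4 arrays, and each has a dye part similar to that of its member.

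Other genes of these pathways were taken from 4 lists by function, of 96 genes in all, of which 21 had 45 probes. Of the 45 probes 1 was called higher and 4 lower, against 0.93% and 4.8% of all probes, and the median estimate was -0.079 against -0.020 for all probes. As deposited, 0 of the 45 were called in limma, against 0.155% of all probes, and 7 had an unadjusted p under 0.05, against 9.09%, and after the block-wise dye curve 1 was called higher and 2 lower, against 3.67% and 3.36% of all probes. Hmox1, Mt2A, Ftl1 and Tfrc had no probe with a single symbol in the table used here.

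None of the 7 probes of 4 iron genes was called in limma (1 at an unadjusted p under 0.05), with a median of -0.023. Tf, the plasma iron carrier transferrin, had deposited values of 0.095, -0.20, 0.0055 and -0.20. Its estimate was -0.079 ± 0.08 (adjusted p = 0.891). Only as deposited did these values lie near 0 on every array, as those of Mt1 did. Centred, they were 0.97, -0.95, 0.73 and -1.07 for Tf and 0.88, -0.98, 0.74 and -1.08 for Mt1.

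In the heme list, 1 of 4 probes (3 genes) was called, lower, with a list median of 0.056. Pgrmc1, a heme-binding membrane protein, had deposited values of -0.24, -0.31, -0.30 and -0.48, below 0 on 4 of 4 arrays. As deposited, 6.92% of all probes kept the same sign on 4 of 4 arrays, and 1.91% did after centring. The centred values of Pgrmc1 were 0.64, -1.06, 0.43 and -1.35, above 0 only where the ligated pool carried Cy5. Pgrmc1 fell by 0.34 ± 0.08 (adjusted p = 0.00562) and, with the block-wise dye curve, by 0.21 ± 0.04 (adjusted p = 0.00474). Pgrmc1 was not called as deposited (-0.33, adjusted p = 0.195) or without replicate 1 or 3 (-0.39 and -0.28, adjusted p = 0.234 and 0.999), nor after a dye curve per array (-0.27, adjusted p = 0.296). Over all its settings the adjusted p ran from 2.81e-15, in the Cy5 over Cy3 reading (0.87, above 0), to 1. Blvra, the biliverdin reductase that acts on the product of heme oxygenase, had deposited values of -0.78, 1.04, -0.63 and 0.75 and an estimate of 0.090 ± 0.09 (adjusted p = 0.852).

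In the zinc and copper list, 2 of 16 probes (8 genes) were called, both lower, with a list median of -0.099. Probe 1862 of Cp, the copper carrier ceruloplasmin, fell by 0.36 ± 0.08 (adjusted p = 0.00243) and, with the block-wise dye curve, by 0.29 ± 0.03 (adjusted p = 0.000455). Its deposited values were -0.62, -0.069, -0.56 and -0.18, while probe 57 of Cp had an estimate of 0.016 ± 0.09. The Cp call ended as deposited (-0.36, adjusted p = 0.133) and without replicate 1 or 3 (-0.39 and -0.34, adjusted p = 0.234 and 0.844), as well as after a dye curve per array (-0.33, adjusted p = 0.124) and without the dye term (adjusted p = 1). Read as Cy5 over Cy3, the estimate was 0.57, above 0. The second call, Sod1 probe 334, lies in block 3 like Fth1 probe 308, and its estimate moved from -0.41 to -0.049 after the block-wise dye curve (adjusted p = 0.52). The other Sod1 probes, 517 and 1549, had -0.071 and -0.087 on centred values and were not called (limma adjusted p = 0.932 and 0.856). Mt4, a metallothionein of stratified epithelia, had an estimate of 0.060 ± 0.08 (adjusted p = 0.962).

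In the quinone and NRF2 list, 1 of 18 probes (6 genes) was called higher and 1 lower, with a list median of -0.084. Gsta2, a glutathione transferase and NRF2 target like Nqo1, had deposited values of 0.47, 0.50, 0.51 and 0.76. It rose by 0.55 ± 0.08 (adjusted p = 9.69e-07), whereas the interval of Nqo1 ends at 0.19. Gsta2 was not called as deposited (0.56 ± 0.06, adjusted p = 0.103), where the prior of the fit is smaller, or without the dye term (adjusted p = 1). Cyb5a probe 264, an electron carrier gene in block 3, was called lower at -0.35 ± 0.09, and had -0.0075 after the block-wise dye curve (adjusted p = 0.941). The other 5 probes of Cyb5a were not called, at -0.19 to 0.10.

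**Figure D4:**
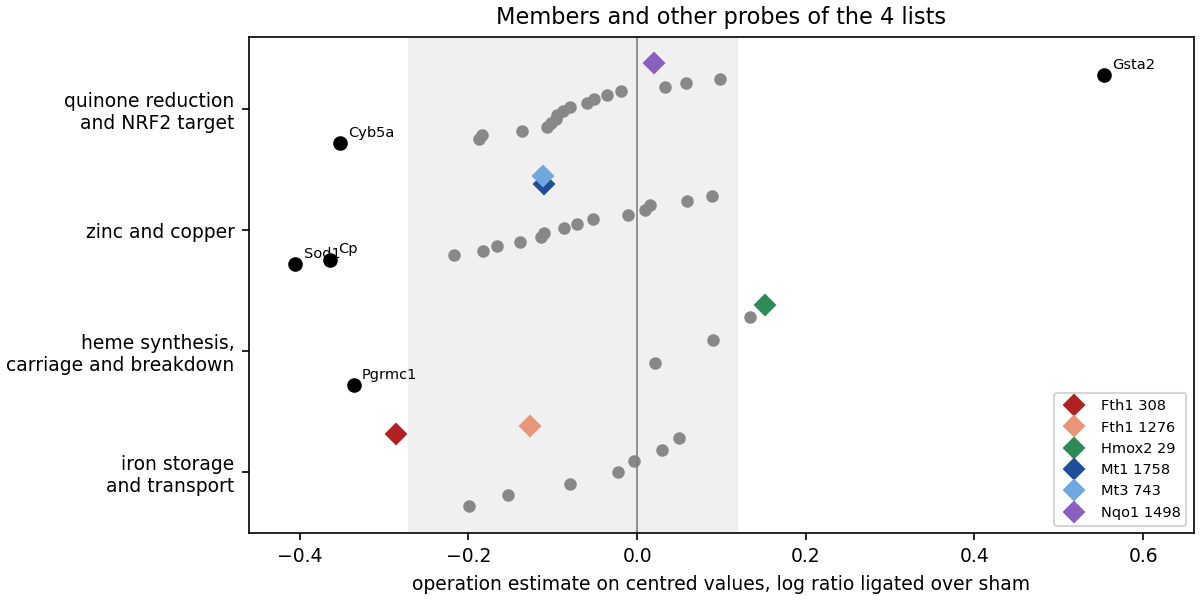
Operation estimate on centred values (horizontal axis, log ratio of ligated over sham) of the 45 probes of the 4 lists (grey points, black and named where called) and of the 6 member probes (coloured diamonds), with heights within a list spread only for legibility. The pale band spans the 5th to the 95th percentile of all probes (-0.27 to 0.12). Fth1 probe 308 lies left of the band and Hmox2 right of it.

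Of the markers fixed for cell types, 2 of 5 hepatocyte, 1 of 5 blood, 1 of 4 cholangiocyte and 1 of 4 stellate markers had a probe, and 0 of 6 macrophage and 0 of 3 lymphoid markers did. Their 7 probes had estimates from -0.30 (Pf4, in block 3) to 0.34 (Col1a1), both called (adjusted p = 0.0337 and 0.00526). The Pf4 call was lost with the block-wise dye curve (-0.045, adjusted p = 0.536) and the other Pf4 probe had 0.14, while the other Col1a1 probe had 0.095, neither called. The Col1a1 call stayed with the block-wise dye curve (0.36, adjusted p = 0.00474). It was lost as deposited, after a dye curve per array and without replicate 1 or 3. The hepatocyte markers Apoa1 and Ttr had -0.15 and -0.24, not called on centred values, and with the block-wise dye curve Ttr was called lower (-0.17, adjusted p = 0.0293). Their part in the results above was not tested.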

How the data were processed

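Liver RNA pools of rats at 1 h after bile duct ligation or sham operation were compared on 4 two-colour cDNA arrays. The deposited values are 1 log ratio per probe and array, with 0 missing; per the labels the dyes were swapped on 2 of 4 arrays. What scanner, background correction, normalization and log base were used is not given in the sources used here. Intensities were not used, and having 4 arrays limits precision. Symbols came from the platform annotation, brought up to date with RefSeq gene IDs (GRCr8), and all 6 member probes kept theirs.

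Values centred on array medians were fitted in limma 3.58.1 (R 4.3.3; lmFit, then eBayes; an operation and a dye term, 1936 probes, Benjamini-Hochberg adjustment, threshold 0.05). The fit has 2 residual degrees of freedom and a prior of 76.2, so an SE rests mostly on the spread shared by all probes. The block size of 121 held most of the variance (adjusted share 71.1%) of an array contrast that follows neither operation nor dye, among 191 sizes from 60 to 250. Dye curves were loess fits (span 0.75) on the dye part of a probe. Fits were tested on simulated data, with a noise SD of 0.194. Of 67 probes given a log ratio of 0.2, 13.4% were recovered, and of 67 given 0.4, 91%. Changes of the size of most member estimates would thus often be missed. Members, lists, alternatives and the block curve were chosen with earlier results of these data known. Named are all member probes, list probes called on centred values or after the block curve, Hmox1, Mt2A, Ftl1, Tf and Tfrc, and the 2 genes most like each member. Blvra, Mt4, the second Cp probe, the other Sod1 and Cyb5a probes and the markers were named beside that rule.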

Additional observations from a re-analysis of the deposited data

How the results depend on the processing

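Over all probes, 111 were called on centred values. The count was 3 as deposited, 1599 in the Cy5 over Cy3 reading, 0 without the dye term (5 at an unadjusted p under 0.05 in limma), 62 with equal scaling of arrays, 7 after a dye curve per array and 136 after one per block, and it ran from 12 to 241 with 1 replicate left out. Of the member probes, 1 was called on centred values and 4 in the Cy5 over Cy3 reading, and with 1 replicate left out it was 0 to 1. In limma 0 were called as deposited, without the dye term and with equal scaling (0, 0 and 1 at an unadjusted p under 0.05). Likewise 0 were called in limma after a dye curve per array or per block and with probes averaged (0, 1 and 1 at that unadjusted p). Over all 1936 probes, the counts at an unadjusted limma p under 0.05 were 176 as deposited and 253 with equal scaling. They were 174 after a dye curve per array and 401 after one per block. With probes averaged, 40 of 958 genes were called and 145 had an unadjusted limma p under 0.05. Of the list probes, 5 were called on centred values, 0 as deposited (7 at an unadjusted p under 0.05 in limma), 1 after the dye curve per array, 3 after that per block and 1 to 7 with 1 replicate left out.

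The Cy5 over Cy3 reading reversed Fth1 probes 308 (1.26) and 1276 (1.04), Mt1 (0.92), Hmox2 (-0.17) and Nqo1 (-0.47), and not Mt3. The block-wise dye curve reversed Fth1 probe 308 (0.069) and the difference between the Fth1 probes (0.115, against -0.16). Leaving out 1 replicate gave that difference -0.28 to 0.10 and Nqo1 -0.023 to 0.063. The other estimates of member probes kept their sign. Among the called list probes, the Cy5 over Cy3 reading reversed Cp probe 1862 (0.57), Pgrmc1 (0.87), Sod1 probe 334 (1.26) and Cyb5a probe 264 (1.18), and not Gsta2 (0.74). The causes were not tested. No paired analysis was possible because all 4 arrays form 1 group, in which each value already sets a ligated against a sham pool.

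With 1 replicate left out, a fit has 1 residual degree of freedom and all probes share an SE (0.144 without replicate 1 or 3, 0.0864 without 2 or 4), so its p-values say little of any single probe's spread.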
